A study of Mus musculus with 1646 samples.

Results

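The genes described here are the 4 TCF/LEF transcription factors (*Lef1*, *Tcf7*, *Tcf7l1* and *Tcf7l2*) and 6 genes known as targets and feedback regulators of canonical WNT signalling (*Axin2*, *Nkd1*, *Nkd2*, *Rnf43*, *Znrf3* and *Notum*). The rule that chose them uses gene names and no measured value, though earlier results of these data were known, and all 10 were found among the 46517 genes of the mouse colon count table by matching Ensembl identifiers to gene symbols in GENCODE vM21.

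When WNT ligands bind their receptors on the cell surface, β-catenin escapes degradation, enters the nucleus and binds TCF/LEF factors, which sit on WNT-responsive elements in the genome. Without β-catenin the same factors hold target genes down together with co-repressors, and among the 4 factors TCF7L1 is known mainly as a repressor and LEF1 mainly as an activator. Several targets feed back on the pathway, and in the colon the stromal cells around the crypt are a source of WNT ligands and of WNT inhibitors for the epithelium.

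Single cells of the colon of male mice aged 10 to 20 weeks were sorted from 4 reporter strains and sequenced one cell per well with SmartSeq2, a full-length cDNA protocol without molecular identifiers. All strains were on a C57Bl6/J background. PdgfrbGFP (46.2% of the 1646 cells, on 4 plates), Acta2GFP (34.4%, on 2 plates, with elastase added during dissociation) and Cspg4dsRED (5.53%, on 1 plate) carried transgenes driven by a mural or mesenchymal promoter, and PdgfraGFP (13.8%, on 2 plates) carried a nuclear GFP knocked into *Pdgfra*. The labels name no individual mouse, so the spread between strains and plates, which may be partly technical, is the only replicate error that could be computed.

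The authors gave each cell a cluster number, which was itself derived from these counts. The fibroblasts were ordered in the study along the crypt: cluster 7 at the base (13.5% of all cells), cluster 5 from base to middle (25.8%), cluster 1 in the middle (29.3%), cluster 6 from middle to apex (2.73%, 45 cells) and cluster 2 at the apex (7.96%). The mural cells were cluster 4 (pericytes, 8.63%), cluster 3 (vascular smooth muscle cells, SMC, 8.57%) and cluster 8 (3.40%, 56 cells), interstitial SMC that the study places within the mucosa, away from vessels. The summed level of 4 fibroblast markers was 2733 to 7777 counts per 500000 in the fibroblast clusters and 112.1 to 1690 in the mural clusters, and that of 6 mural markers was 57.2 to 1442 against 5507 to 9263. In cluster 6 the Acta2GFP and PdgfraGFP cells were the only strains with at least 10 cells. The gene counts per cell ranged from 47598 to 1494292, with a median of 248628.

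A level below is a count per 500000 gene counts of a cell, averaged over the cells of a strain, and a mean ± SD is taken over the strains with at least 10 cells in the cluster. Tests compared raw counts summed over the cells of a cluster within a strain with edgeR's quasi-likelihood test and Benjamini-Hochberg adjustment over all genes, and a gene is called at an adjusted p under 0.05. Since these counts also defined the clusters, a test between clusters does not stand apart from how they were drawn.

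The promoters of *Lef1* and *Nkd1*, the members with the highest mean level in apex fibroblasts and in vascular SMC, are shown because the data bear on both genes. Each is the 250 bases before a RefSeq start on GRCm38.p6, plus strand, chr3:131110047-131110296 for *Lef1* and chr8:88527383-88527632 for *Nkd1*, with CTTTG, the core of the TCF/LEF motif, in capitals where a search of both strands found it.
Lef1: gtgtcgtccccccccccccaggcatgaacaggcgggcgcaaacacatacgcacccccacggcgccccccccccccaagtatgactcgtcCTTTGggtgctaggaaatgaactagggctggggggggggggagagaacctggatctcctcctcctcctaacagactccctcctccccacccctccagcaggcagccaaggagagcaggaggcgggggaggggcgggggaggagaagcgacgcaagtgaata
Nkd1: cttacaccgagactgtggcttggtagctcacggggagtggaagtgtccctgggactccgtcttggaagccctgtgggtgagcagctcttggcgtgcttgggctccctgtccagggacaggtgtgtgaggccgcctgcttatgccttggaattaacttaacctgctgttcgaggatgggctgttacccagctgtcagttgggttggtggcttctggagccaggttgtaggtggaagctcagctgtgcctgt
The *Lef1* window held 66.4% G or C and 11 CpG and lay wholly in an exon of the antisense gene *Gm43352*. The *Nkd1* window held 58.4% G or C and 6 CpG, with no annotated exon in it and no CTTTG on either strand. It lies inside the annotated gene, which begins at chr8:88521354, and so precedes an internal start. Over all promoters the median was 52.4% G or C.

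RefSeq promoters of 300 bases (250 before and 50 after a start) were found for 8 of the members, with 14 starts in all. The longer motif, CTTTGAA or CTTTGAT on either strand, was in 0 of these 14 promoters, against 8.65% of 32851 promoters of the same length. The core CTTTG was in 7 of the 14, belonging to *Lef1*, *Tcf7l1* and *Tcf7l2*, against 53.9% of all promoters. *Znrf3* and *Notum* had no entry. A match is only a match of letters, and the windows were short.

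*Lef1* (chr3:131110471-131224356, plus strand, GRCm38), the factor best known for activating WNT targets, was found almost wholly in apex fibroblasts. Its level in cluster 2 was 91.96 in PdgfrbGFP, 87.46 in Acta2GFP and 161.95 in PdgfraGFP, a mean of 113.8 ± 41.8 (SD, n = 3 strains). The next cluster was cluster 6, with 0.987 in Acta2GFP and 2.18 in PdgfraGFP, and no strain exceeded 1.72 in any other cluster. The 3 apex levels did not overlap those of any other cluster, whereas clusters 6, 1, 8, 5, 7, 4 and 3, in falling order of their means, overlapped each with its neighbour in range. Cluster 2 held 96.5% of all *Lef1* counts and 8.33% of the counts of all genes. The 3 markers of interstitial cells of Cajal summed to 125.1 to 226.9 in cluster 2 and to 2.54 to 51.3 in clusters 7, 5 and 1. *Ano1* gave most of this sum (98.13 to 219.6 in the apex), while *Kit* was at 0 to 1.497 and *Etv1* at 7.28 to 26.9, and the part of such cells in the *Lef1* level was not tested.

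**Figure D1:**
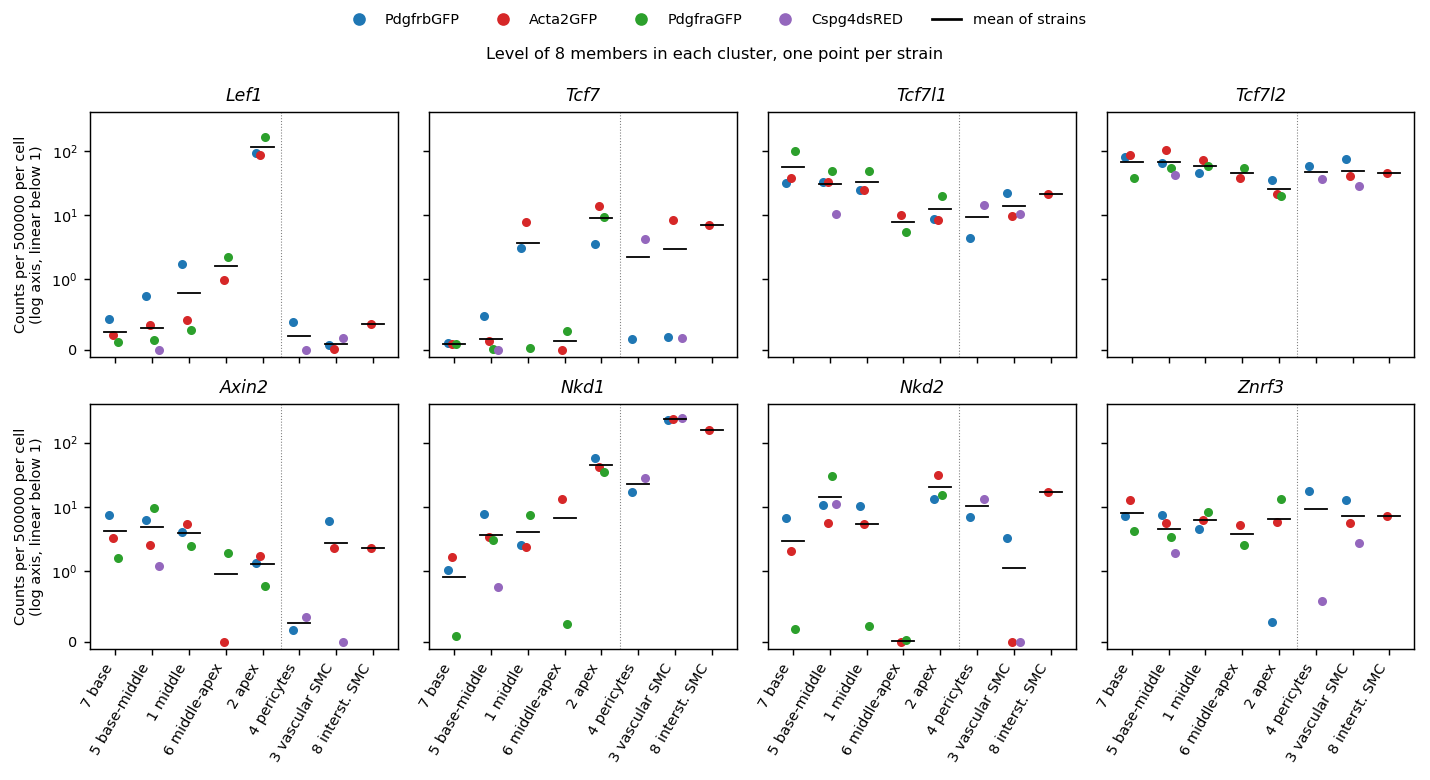
Level of 8 members in counts per 500000 per cell (log axis, linear below 1) in the 8 clusters, with one point per strain with at least 10 cells and a black line at the mean of the strains; the dotted line separates fibroblast from mural clusters. *Lef1* stands near 100 only in cluster 2, *Nkd1* is highest in clusters 3 and 8, and *Tcf7l2* lies between 19.8 and 103.4 in every cluster.

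Within the apex cluster *Lef1* was uneven from cell to cell. A *Lef1* count was present in 74.8% of apex cells (95% Clopper-Pearson interval 66.5 to 81.98%), and in 66.4% once each cell was thinned to 50000 counts. At least 30 counts, the detection level used by the study for WNT genes, were present in 58 apex cells (44.3%), in 1 cell of cluster 1 and in no other cell. In vascular SMC, whose median depth of 359677 counts was above the 261785 of apex cells, 4.96% had a *Lef1* count and 0.714% after thinning. Such intervals cover counting error only.

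All plates with apex cells held *Lef1* in them, from 29.1 on a plate with 3 apex cells (PdgfrbGFP) to 172.5 on a plate with 30 (PdgfraGFP). Within the 2 PdgfrbGFP plates with at least 10 cells of each cluster, apex levels were 92.2 and 100.7 above the mean of clusters 1, 5 and 7.

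**Figure D2:**
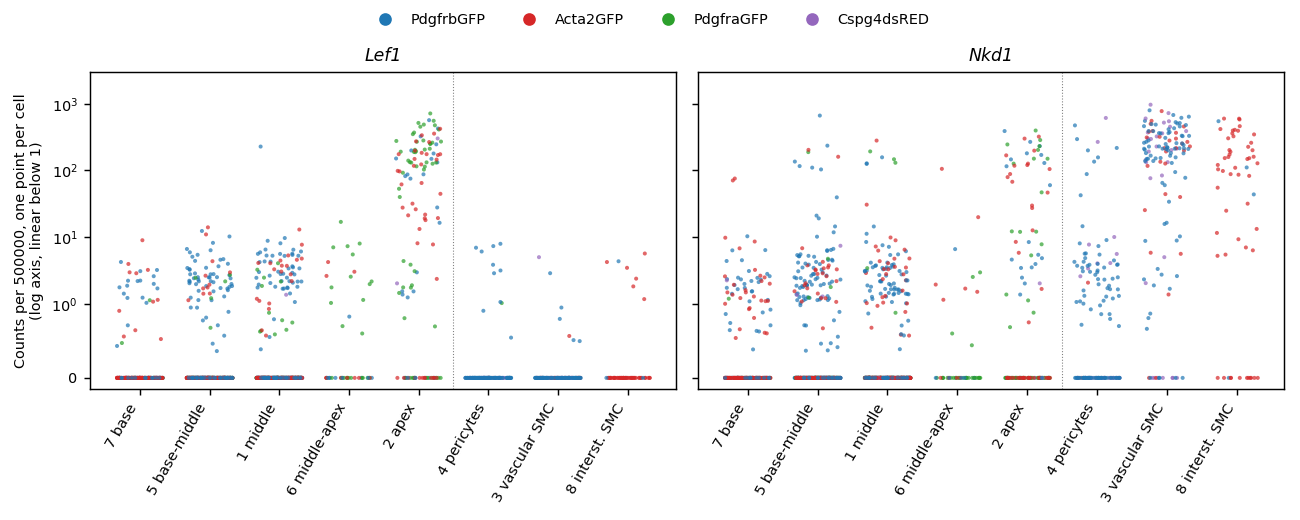
*Lef1* and *Nkd1* in single cells, in counts per 500000 (log axis, linear below 1), by cluster, each point a cell coloured by strain. *Lef1* above 100 is nearly confined to cluster 2, with 1 cell of cluster 1 at 228.1, and *Nkd1* above 100 fills clusters 3 and 8 and part of cluster 2.

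Apex fibroblasts were compared with the 3 clusters from base to middle. Of 9 members that passed the filter on low counts, 3 were called, all higher in the apex. In this comparison 6.28% of 21739 genes were called (4.42% higher and 1.86% lower). *Lef1* was higher by a log2 fold change of 8.58 (SE 0.64, edgeR adjusted p = 1.58e-07), higher in 3 of 3 strains. *Nkd1*, which encodes a Dishevelled-binding inhibitor of the pathway, was higher by 4.16 (SE 0.64, edgeR adjusted p = 0.000302). *Tcf7* was higher by 5.06 (SE 1.15, edgeR adjusted p = 0.00907), but this call was lost when either Acta2GFP or PdgfraGFP was left out (highest adjusted p = 0.156). In clusters 5 and 7 the levels were at most 0.480 for *Tcf7* and 0.762 for *Lef1*, too near 0 for the size of either fold change to be read.

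*Tcf7* (chr11:52252371-52283014, minus strand), a factor well known from T lymphocytes, had few counts in few cells. Its level in cluster 2 was 3.54 in PdgfrbGFP, 13.7 in Acta2GFP and 9.19 in PdgfraGFP, and a single cell gave 92.8%, 56.4% and 45.1% of those counts. In cluster 1 the level was 3.03, 7.80 and 0.0217 in the same order, so the ranges of clusters 1 and 2 overlapped. It was 0 to 0.480 in cluster 5, 0.0828 to 0.102 in cluster 7 and 0.157 to 8.37 in the mural clusters. At least 30 counts were present in 7 apex cells and 10 cells of cluster 1, and 6 of the 7 apex cells also had at least 30 counts of *Lef1*. The T cell markers *Cd3e*, *Cd3d*, *Cd3g*, *Cd2*, *Trac* and *Il7r* summed to 0.110 to 0.355 in cluster 2, and none of the *Lef1*-high or *Tcf7*-high apex cells reached 30 counts of them.

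*Tcf7l2* (chr19:55741820-55933654, plus strand), the main TCF of the intestinal epithelium, was the most widely detected member, with a count in 1413 cells. Its level was 78.97, 85.2 and 38.1 in cluster 7, 65.2, 103.4, 54.6 and 42.4 in cluster 5 and 45.2, 72.1 and 57.99 in cluster 1, with PdgfrbGFP first, then Acta2GFP, PdgfraGFP and Cspg4dsRED. The apex had the lowest mean of any cluster, 35.1, 20.9 and 19.8, and its range did not overlap that of any other cluster with at least 2 strains except cluster 3. The mural clusters lay at 28.3 to 74.4, overlapping the fibroblasts of the base and middle.

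Against clusters 1, 5 and 7 the apex level of *Tcf7l2* had a log2 fold change of -1.26 (SE 0.41, edgeR adjusted p = 0.0741). It did not pass the threshold, and was called lower with strain as a block, with DESeq2, with plates, with limma, when only those clusters were fitted and without Cspg4dsRED. It was not called with no filter, with at least 3 cells per sum, or without PdgfrbGFP, Acta2GFP or PdgfraGFP (adjusted p up to 0.580). Within the 2 PdgfrbGFP plates the apex level was lower by 27.8 and 27.6.

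*Tcf7l1* (chr6:72626378-72789254, minus strand) had its highest mean in cluster 7. Its level was 31.4, 37.7 and 98.5 in cluster 7, 32.4, 32.1, 47.6 and 10.2 in cluster 5, and 24.4, 24.2 and 48.7 in cluster 1. It was 9.92 in Acta2GFP and 5.39 in PdgfraGFP in cluster 6, and 8.52, 8.33 and 19.5 in cluster 2. The cluster 6 values lay below every value of clusters 7, 5 and 1, and the apex overlapped only the Cspg4dsRED value of cluster 5. Clusters 7, 5 and 1 overlapped each other, and cluster 7 minus cluster 1 was -18.1 and 38.2 on 2 PdgfrbGFP plates and 7.40 and 16.01 on the 2 Acta2GFP plates, while 1 PdgfraGFP plate had 96.8 in cluster 7 and 40.9 in cluster 1. Endothelial markers summed to 137.6 to 228.2 in cluster 7, 111.3 to 148.5 in cluster 5, 17.4 to 26.7 in cluster 1 and 5.27 to 24.4 in cluster 2. All 5 markers had a count in the PdgfrbGFP and PdgfraGFP cells of cluster 7. In its Acta2GFP cells *Cdh5* had no count, although the sum was 199.3. The sort had excluded cells stained for the endothelial protein CD31, and the part of endothelial RNA in the *Tcf7l1* level was not tested. The fitted log2 fold change of the apex was -1.87 (SE 0.67, edgeR adjusted p = 0.117), short of the threshold, and passed it with DESeq2 alone.

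Per kilobase of exon, *Lef1* was near 0 in cluster 7 and had the highest level of the 4 factors in cluster 2. In cluster 7, in PdgfrbGFP, Acta2GFP and PdgfraGFP, *Tcf7l1* was at 8.00, 9.60 and 25.1 per kilobase and *Tcf7l2* at 8.9996, 9.71 and 4.34, whereas *Tcf7* and *Lef1* were at most 0.0496 in any strain. In cluster 2 *Lef1* was at 10.46, 9.95 and 18.4 per kilobase, *Tcf7* at 1.35, 5.24 and 3.50, *Tcf7l1* at 2.17, 2.12 and 4.96 and *Tcf7l2* at 4.00, 2.38 and 2.26. The order of the other factors differed between strains. No test was made between genes.

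Cells often held several factors. In cluster 7, 46 cells had at least 30 counts of *Tcf7l1*, 100 had them of *Tcf7l2* and 30 had both. In the apex cluster, 10 of the 58 *Lef1*-high cells had at least 30 counts of *Tcf7l2* and 2 had them of *Tcf7l1*. Any count of all 4 factors was present in 4 apex cells, and no count of any in 8.

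*Nkd1* (chr8:88521354-88594884, plus strand) was the member with the widest span outside the apex, and it was highest in smooth muscle. In vascular SMC its level was 227.3 in PdgfrbGFP, 231.4 in Acta2GFP and 242.2 in Cspg4dsRED (233.6 ± 7.68, SD, n = 3 strains). Interstitial SMC had 157.7 in the 1 strain with at least 10 cells. Apex fibroblasts followed with 57.7, 41.5 and 34.3, then pericytes with 16.9 in PdgfrbGFP and 27.8 in Cspg4dsRED, and these 4 clusters did not overlap in range. Clusters 6, 1, 5 and 7 lay at 0.0795 to 13.2.

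Counts of *Nkd1* came from most vascular SMC, with a count in 90.1% of them (83.9 to 94.5%), and in 83.6% after thinning. Cluster 3 held 71.3% of all *Nkd1* counts. The markers of interstitial cells of Cajal summed to 259.3 to 381.3 in cluster 3, 176.3 and 509.2 in cluster 4 and 23.7 in cluster 8, again mostly *Ano1*, and their part in the *Nkd1* level was not tested. At least 30 counts were present in 71.6% of vascular SMC, 42.9% of interstitial SMC, 8 pericytes (5.63%) and 26 apex fibroblasts (19.8%). Interstitial SMC were shallower (median depth 118252 against 359677 counts in vascular SMC), and after thinning 72.2% of them had a *Nkd1* count. In the apex, 13 of these 26 cells also had at least 30 counts of *Lef1*, and in vascular SMC 42 of the 49 cells with at least 30 counts of *Tcf7l2* also had them of *Nkd1*.

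Fibroblasts as a class were set against mural cells to ask which members separate the archetypes. Of 8 members tested, *Lef1* was called higher and *Nkd1* lower in fibroblasts, and 6.57% of 19173 genes were called. The fibroblast level of *Lef1* was lowest in PdgfrbGFP (5.90), followed by Acta2GFP (8.28), Cspg4dsRED (10.9) and PdgfraGFP (39.97), whereas the mural cells of 3 strains had 0.0794 to 0.267. Its log2 fold change was 6.76 (SE 1.21, edgeR adjusted p = 0.0106). Without cluster 2 the fibroblast level fell to 0.0526 to 1.12 and the fold change to 1.33 (SE 0.99, edgeR adjusted p = 0.532), an alternative chosen after seeing the data.

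The class level of *Nkd1* was 7.16, 6.20, 11.4 and 0.512 in the fibroblasts of PdgfrbGFP, Acta2GFP, PdgfraGFP and Cspg4dsRED, and 111.1 in PdgfrbGFP, 177.5 in Acta2GFP and 130 in Cspg4dsRED mural cells. The classes did not overlap, and the log2 fold change was -4.95 (SE 0.75, edgeR adjusted p = 0.00488). It was -5.97 (edgeR adjusted p = 0.00171) without cluster 2. Both calls were lost when PdgfrbGFP was left out (adjusted p = 0.0735 for *Lef1* and 0.0555 for *Nkd1*).

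**Figure D3:**
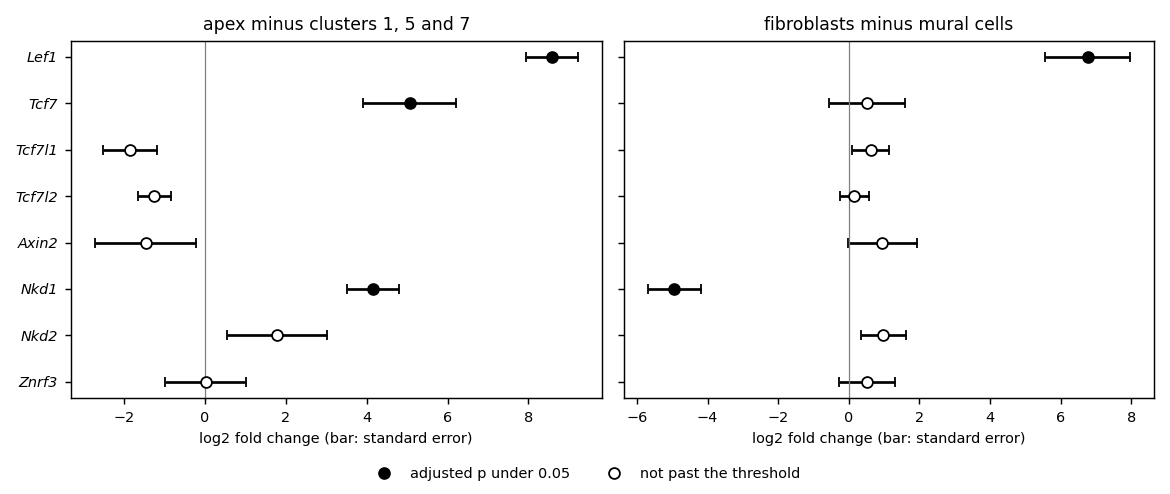
Log2 fold change of 8 members with its standard error, for apex fibroblasts against clusters 1, 5 and 7 (left) and fibroblasts against mural cells (right), with filled points at an edgeR adjusted p under 0.05. *Lef1*, *Tcf7* and *Nkd1* are filled on the left, and *Lef1* and *Nkd1*, the latter below 0, on the right.

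Neither *Axin2*, *Nkd2* nor *Znrf3* was called by edgeR in the apex or between the classes. *Axin2* (chr11:108920349-108950783, plus strand), a scaffold of the β-catenin destruction complex and a standard readout of the pathway, was 0 to 9.53 in every cluster and strain with at least 10 cells. Its mean was lowest in pericytes, at 0.1687 and 0.3503, which overlapped neither the apex nor clusters 7, 5 and 1. It was 1.31, 1.71 and 0.788 in the apex against 1.17 to 9.53 in clusters 7, 5 and 1, where single cells gave up to 100% of a strain's counts. The apex log2 fold change was -1.47 (SE 1.26, edgeR adjusted p = 0.656).

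*Nkd2* (chr13:73818534-73847631, minus strand), the relative of *Nkd1*, was 13.4, 31.6 and 15.1 in the apex, 10.6, 5.59, 30.3 and 11.1 in cluster 5, and 0 to 17.1 elsewhere. In cluster 6 it was 0 and 0.0212, below every value of the apex and of cluster 5. Its apex log2 fold change was 1.79 (SE 1.24, edgeR adjusted p = 0.537). *Znrf3* (chr11:5276324-5444847, minus strand), a ubiquitin ligase that removes WNT receptors from the membrane, ranged from 0.278 to 17.8, and clusters 6 and 8 were the only pair that did not overlap. Its apex log2 fold change was 0.02 (SE 1.00, edgeR adjusted p = 1.00).

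*Rnf43* (chr11:87662722-87735539, plus strand), the partner ligase of *Znrf3*, had 17 counts in 7 of 1646 cells, at most 10 in a cell. It was counted in 0 of 56 interstitial SMC, which allows up to 5.36% of such cells to have a count, taking 3 counts as the limit (6.38% by Clopper-Pearson), and in none of the cells of clusters 1, 4 and 6. *Notum* (chr11:120653788-120661175, minus strand), a secreted enzyme that inactivates WNT ligands, had counts in 3 cells, and 1 of these gave 99.02% of its counts in cluster 5. *Rnf43* passed the filter of neither fit, and the fitted values of *Notum* rest on that cell.

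Single fibroblast clusters were then compared to place the changes along the axis. From cluster 6 to cluster 2, *Lef1* alone was called among 9 members (0.957% of all genes were called), with a log2 fold change of 7.12 (SE 1.23, edgeR adjusted p = 0.00537). That call was lost without Acta2GFP or without PdgfraGFP, the 2 strains of cluster 6 (adjusted p up to 0.357). *Nkd1* had 3.41 (SE 1.17, edgeR adjusted p = 0.173). *Tcf7* and *Nkd2* were at 0 to 0.263 in cluster 6, too near 0 for a fold change to be read.

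From cluster 1 to cluster 6, none of the 9 members was called by edgeR, and 0.791% of all genes were called. At an unadjusted p under 0.05, 13.3% of genes and 3 members (*Tcf7*, *Nkd2* and *Tcf7l2*) passed, and DESeq2 called 7.77% of genes and 2 members. From cluster 1 to cluster 7 none was called by edgeR, with 0.488% of all genes called. At an unadjusted p under 0.05, 1 of 9 members (*Tcf7*) and 9.04% of genes passed, and DESeq2 called 1 member and 2.84% of genes.

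Among mural cells, *Nkd1* had a log2 fold change of -3.08 (SE 1.12, edgeR adjusted p = 0.257) in pericytes against vascular SMC, where no member and 0.819% of all genes were called. *Nkd1* and *Axin2* passed an unadjusted p under 0.05, as did 12.7% of all genes. DESeq2 called 1 member, *Axin2*, and 5.59% of genes, and limma called 1 member, *Nkd1*, and 3.24% of genes. The levels of *Nkd1* in the 2 clusters, 16.9 and 27.8 against 227.3 to 242.2, did not overlap. In interstitial against vascular SMC 1.01% of all genes and no member were called by edgeR, no member was called by DESeq2 (5.12% of genes), and no member passed an unadjusted p under 0.05 (9.51% of genes). Interstitial SMC had 1 strain, assumed to vary like the other groups.

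Strains were compared within cluster 1, with plates as samples. By edgeR 0% of 15700 genes were called for Acta2GFP against PdgfrbGFP and 0% for PdgfraGFP against PdgfrbGFP, with 2.77% and 6.75% of genes at an unadjusted p under 0.05 and 0.166% and 2.68% called by DESeq2. No member was called by edgeR. *Tcf7*, at 0.0217 in PdgfraGFP against 3.03 in PdgfrbGFP, and *Nkd2*, at 0.221 against 10.3, passed an unadjusted p under 0.05 and were called by DESeq2. Plates of a strain may share a mouse, and strain, dissociation and plate cannot be told apart.

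Other WNT genes were taken from lists fixed by name. Of 15 further genes known as WNT targets, 5 were called higher and 2 lower in the apex against clusters 1, 5 and 7, against 4.42% higher and 1.86% lower over all genes, with a median log2 fold change of 1.06 against -0.09. *Lgr5*, the R-spondin receptor, stood at 341.1, 224.6 and 297.9 in the apex and at 0 to 3.33 from base to middle, so that it was higher by 8.38 on the log2 scale (SE 0.87, edgeR adjusted p = 2.71e-06). *Twist1*, a mesenchymal transcription factor, was lower by -5.83 (SE 1.43, edgeR adjusted p = 0.0155), at 0 to 0.198 in the apex and 1.38 to 17.7 in those clusters. Its apex levels were too near 0 for the size of that fold change to be read. *Sp5*, a transcription factor, was called higher, at 0 to 2.76 in the apex and 0 to 0.828 in those clusters, levels too near 0 for a fold change to be read.

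The other 4 called targets were named after their values were seen. *Cd44*, a hyaluronan receptor, was 714, 905 and 723 in the apex and 42.7 to 110 from base to middle, higher by 3.36 on the log2 scale (edgeR adjusted p = 3.32e-07). *Id2* had 2.24 and *Ccnd1* 1.60, both higher, and *Ephb2*, a receptor tyrosine kinase, had -4.36, lower. *Lgr5* and *Cd44* remained called in all 11 alternatives, and the other 5 targets lost their call when at least 1 strain was left out. *Sp5* also lost it with DESeq2, and *Ephb2* and *Id2* with at least 3 cells per sum.

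**Figure D4:**
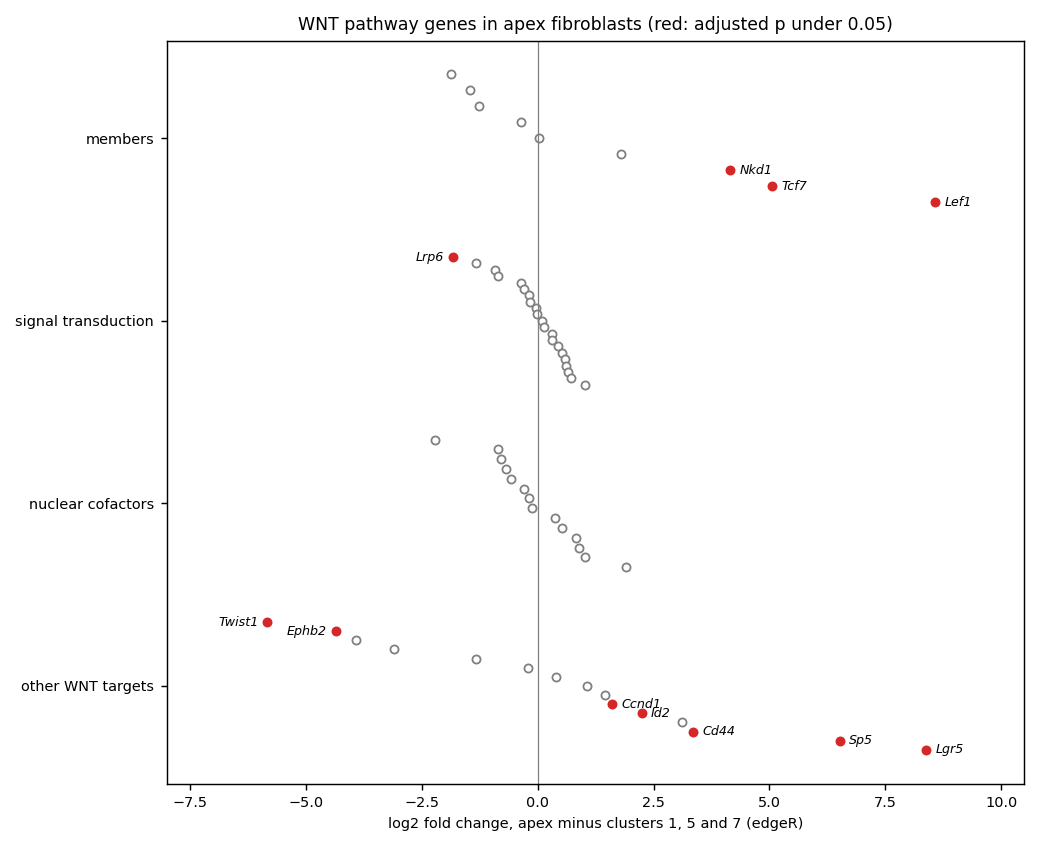
Log2 fold change of apex fibroblasts against clusters 1, 5 and 7 by edgeR for the members and 3 lists of WNT genes, each point a gene, red where the adjusted p is under 0.05. Of the other WNT targets 5 lie to the right and 2 to the left in red, and of the signal transduction genes only *Lrp6* is red.

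Of 21 signal transduction genes 1 (4.76%, against 6.28% of all genes) was called, *Lrp6*, the WNT co-receptor, lower in the apex at 21.01, 13.8 and 16.2 against 43.7 to 86.6 in clusters 7, 5 and 1 (log2 fold change -1.82, SE 0.52, edgeR adjusted p = 0.0408). Its call was lost without PdgfrbGFP, without Acta2GFP, without PdgfraGFP (adjusted p up to 0.311), with strain as a block (adjusted p = 0.0677) and with at least 3 cells per sum (adjusted p = 0.118). Of 14 nuclear cofactors none was called by edgeR. The medians of both lists, 0.09 and -0.15, lay near that of all genes.

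In cluster 6 against cluster 1, 3 of the 15 targets were called higher and 2 lower, against 0.189% higher and 0.603% lower over all genes. *Wif1*, a secreted WNT inhibitor, was 182.8 in Acta2GFP and 42.9 in PdgfraGFP in cluster 6 and at most 0.281 in cluster 1. *Myc* had a log2 fold change of -4.56 (edgeR adjusted p = 0.0199). *Bambi* had -6.88 (edgeR adjusted p = 0.0355), but the fit left out the 9 PdgfrbGFP cells of cluster 6, where its level was 19.9 (98.3% of the counts from 1 cell) against 11.7 to 27.4 in cluster 1, and with at least 3 cells per sum, which adds them, the value was -0.06 (edgeR adjusted p = 0.996). *Tle1*, a co-repressor of TCF/LEF factors, was the 1 cofactor called, at 1.94 and 0.871 against 21.6 to 25.9 (log2 fold change -5.51, edgeR adjusted p = 0.0309). All 6 called genes lost their call without Acta2GFP and without PdgfraGFP, the strains of cluster 6, and all but *Cd44* also without PdgfrbGFP. *Tle1*, *Myc*, *Cd44* and *Bambi* lost it when only those clusters were fitted, *Tle1*, *Cd44*, *Bambi* and *Id2* with at least 3 cells per sum, *Myc* and *Bambi* with limma, and *Myc* with plates.

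From cluster 6 to the apex, 3 of the 15 targets were called higher and 1 lower, against 0.695% higher and 0.262% lower over all genes. *Wif1* was lower, at 0 to 0.301 in the apex. *Lgr5* (8.06, edgeR adjusted p = 0.0284) and *Myc* (6.66, edgeR adjusted p = 0.000807) were higher on the log2 scale. *Bambi* had 8.31 (edgeR adjusted p = 0.0110), and 1.82 (edgeR adjusted p = 0.698) with at least 3 cells per sum. Each of these 4 calls was lost without Acta2GFP. *Lgr5* and *Myc* also lost theirs without PdgfraGFP, *Lgr5* with plates, and *Bambi* without PdgfrbGFP and when only those clusters were fitted. This comparison shares the cluster 6 sums with the one before, so low values there move both. No signal transduction gene and no cofactor was called there.

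Between fibroblasts and mural cells 1 of 13 targets tested (7.69%, against 6.57% of all genes) was called. This was *Ephb2* (higher, log2 fold change 4.32, edgeR adjusted p = 0.0158), and it lost its call without PdgfrbGFP, without Acta2GFP or with strain as a block (adjusted p up to 0.121). *Cd44* was called in pericytes (3.15, edgeR adjusted p = 0.000811) and in interstitial SMC (4.41, edgeR adjusted p = 9.69e-05) against vascular SMC. The pericyte call was lost without PdgfrbGFP (adjusted p = 0.0903), and the interstitial call rests on 1 strain, Acta2GFP, without which it could not be fitted. No other list gene was called in these comparisons, in cluster 7 against cluster 1 or between strains by edgeR.

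The genes most like each member across the 21 cluster sums were found by the Pearson correlation of log2(CPM + 1), a description over sums that share strains. For *Lef1* they were *Trpa1* (r = 0.995), *Cd300e* (0.992) and the antisense gene *Gm43352* (0.992). For *Nkd1* they were *Cobll1* (0.908), *Tbx3os1* (0.906) and *Cap2* (0.897). For *Tcf7* they were *Smad6* (0.884), *Mboat2* (0.853) and *Gm15503* (0.823), for *Tcf7l1* a gene without a symbol (0.806), the antisense gene *Gm15401* (0.799) and *Gm12022* (0.790), and for *Tcf7l2* *Vamp1* (0.851) and *Gm22513* (0.816). For *Axin2* they were the antisense gene *Gm11670* (0.845), *Lig4* (0.802) and *Copz2* (0.778), for *Nkd2* *Gm38399* (0.788), *Syne3* (0.768) and *Btbd19* (0.766), and for *Znrf3* *Crebl2* (0.824), *Bcl2l12* (0.793) and *Atp23* (0.785). Those of *Notum*, *Asic3* (0.9998), *Gm9085* (0.9997) and *Accsl* (0.9996), rest on the 1 sum that held nearly all of its counts.

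*Gm43352*, *Gm11670*, *Gm15401* and *A630014C17Rik* overlap *Lef1*, *Axin2*, *Tcf7l1* and *Tcf7* on the opposite strand, and since no source says that reads were counted by strand, the reads of such a pair cannot be told apart. *Gm43352* stood at 35.6, 30.4 and 75.1 in the apex, where 97.5% of its counts lay. It had a count in 53 of the 58 *Lef1*-high apex cells and in 23 of the other 73, and no cell had at least 30 counts of it without *Lef1*. *A630014C17Rik* stood at 0.842 to 2.18 in cluster 1, where *Tcf7* was at 0.0217 to 7.80, and at 0 to 0.499 in the apex. *Nkd1* and *Znrf3* have no overlapping gene in the annotation.

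With plates pooled, low counts of *Lef1* and *Nkd1* outside their main clusters were more frequent in the rows and columns of strong wells. In clusters 1, 5 and 7, 34.3% of 350 cells that shared a plate row or column with an apex well of at least 100 *Lef1* counts had a *Lef1* count, against 9.22% of 683 others on the same 6 plates. For *Nkd1*, with wells of clusters 3 and 8 and 7 plates, the shares were 39.6%, against 18.7% of 535 others. These shares mix plates that differ, as a *Lef1* count was in 40% of cluster 5 cells on a PdgfrbGFP plate and in 5.17% on a PdgfraGFP plate. Within a plate, a cell's count was set against the strong-well counts of its row and column by Spearman correlation. For *Lef1* the coefficient averaged 0.151 over 6 plates (-0.214 to 0.668), and for *Nkd1* 0.323 over 7 (0.0437 to 0.561). The part of plate layout in the low levels was not tested. T cell markers, at 4.46 to 26.8 in vascular SMC, had a count in 45.5% of the vascular SMC with at least 30 *Nkd1* counts and in 10 of the other 40. Nearly all of this was *Trac* (4.29 to 26.7), while *Cd3e*, *Cd3g*, *Cd2* and *Il7r* were at 0 in all 3 strains of that cluster, and the part of T cells in the *Nkd1* level was not tested.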

How the data were processed

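Colon cells of 4 reporter strains on 9 plates were used, grouped by the strain, plate and cluster in the labels. The authors demultiplexed reads with bcl2fastq, trimmed adapters with trim galore, mapped them to GRCm38 with TopHat2 and Bowtie or Bowtie2, removed what they call doublets with samtools, counted reads per gene with featureCounts (Subread), and deposited raw counts in whole numbers. Strand setting is not given in the sources used here. The methods also required *Pdgfra* or *Pdgfrb* expression and removed contaminated cells, and no doublet caller was run here. The 92 ERCC rows (1.36% of counts) were left out, and 46005 of 46517 genes had a symbol.

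Counts were summed per class or cluster and strain with at least 10 cells (21 cluster sums, with 2202988 to 85478239 counts), scaled by TMM and compared in edgeR 4.0.16 (glmQLFit, glmQLFTest) after filterByExpr had removed low genes, all clusters in one fit. The fit was also run on simulated sums with planted changes. Those sums were drawn independently, so the run cannot show the effect of strains shared between clusters. Standard errors are the log2 fold change over the square root of F. Cells were thinned to 50000 counts, which left out 11. Reads are not independent molecules, so intervals cover counting error only. The alternatives were DESeq2 1.42.0, no filter, strain as replicate block, at least 3 cells, plates in place of strains, limma 3.58.1 on log2(mean level + 1), only the clusters compared, leaving out each strain or plate, cluster 5 for the strain comparison and, added later, fibroblasts without cluster 2. R 4.3.3, Python 3.11.15, numpy 2.4.6, pandas 2.3.3, scipy 1.17.1 and matplotlib 3.10.9 were used.

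Named are all members, for each list the 3 called genes with the largest absolute log2 fold change, and the 3 genes most correlated with each member, of which 1 is not reported here. Members and lists were chosen with earlier results of these data known. Same-strain sums share plates, according to the labels, and may share mice. Their deviations from cluster means correlated at 0.0101 to 0.164 (12 of 43 pairs over 0.1), against -0.164 to 0.0801 for different strains, and class sums at 0.0949 to 0.143 (3 pairs).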

Additional observations from a re-analysis of the deposited data

Results flagged for a closer look

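In 20 groups of 4 strains, each strain was checked for a gap to the others above Dixon's 95% critical value, which chance exceeds in about 1 in 20 groups, and 4 groups had such a strain. The *Lef1* level in fibroblasts was 39.97 in PdgfraGFP, against 5.90 to 10.9 in the other strains. PdgfraGFP had 55 apex cells, against 30 in PdgfrbGFP and 44 in Acta2GFP, and without the apex cluster its fibroblast level was 0.507, against 0.0526 to 1.12. The *Notum* level was 1.08 in PdgfraGFP fibroblasts (others 0 to 0.00339) and 3.78 in PdgfraGFP cells of cluster 5 (others 0 to 0.0128), both from the 1 cell that gave 99.02% of the *Notum* counts of cluster 5. The *Rnf43* level was 0.0783 in Acta2GFP cells of cluster 5 and 0 in the others, from 3 counts in 3 cells.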

How the results depend on the processing

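Numbers of genes called depended strongly on the tool, and are given as percentages of the genes tested, whose number differed between fits. DESeq2 called 15.4% for fibroblasts against mural cells, 9.48% for the apex against clusters 1, 5 and 7, 7.77% for cluster 6 against 1, 8.95% for cluster 2 against 6, 2.84% for cluster 7 against 1, 5.59% for cluster 4 against 3, 5.12% for cluster 8 against 3, and 0.166% (Acta2GFP) and 2.68% (PdgfraGFP) between strains, where no filter gave 0.0186% and 0.0410%. Plates gave 16.1% for the classes, 3.84% (6 against 1), 3.30% (2 against 6), 2.61% (7 against 1), 2.70% (4 against 3) and 3.84% (8 against 3), and limma gave 3.12%, 4.08%, 1.96%, 3.24% and 4.05% for the last 5. At least 3 cells gave 0.640% (6 against 1), 0.635% (2 against 6) and 1.92% (8 against 3), and only the clusters compared gave 0.594%, 0.977%, 2.49% and 0.778% (6 against 1, 2 against 6, 7 against 1, 4 against 3). With strain as replicate block, 3.08% were called between classes and 0.773% for cluster 7 against 1, and *Tcf7l2* became lower in the apex; the block changed no other member's call.

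Members called by DESeq2 were 1 between classes (the *Lef1* adjusted p was NA), 5 in the apex, 2 (6 against 1), 4 (2 against 6), 1 (7 against 1), 1 (4 against 3) and 2 for PdgfraGFP. For cluster 2 against 6, plates gave 2 and limma 3. For cluster 4 against 3, limma gave 1 and only the clusters compared 1. Without cluster 2, *Nkd1* kept its call between classes and *Lef1* lost it.

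Leaving out 1 strain gave 1.81% to 5.81% of genes and 0 to 2 members between classes (1.81% and 0 without PdgfrbGFP, 3.24% without Acta2GFP), 2.00% to 7.41% and 2 to 4 in the apex (2.00% without Acta2GFP, 3.44% without PdgfraGFP, 3.94% without PdgfrbGFP), 0.0520% to 2.08% (6 against 1), 0.0236% to 2.21% and 0 to 1 member (2 against 6), 0.0709% to 0.813% (7 against 1), 0.226% to 0.974% (4 against 3) and 0.485% to 1.64% (8 against 3, which could not be fitted without Acta2GFP). The lowest of these 5 ranges came without Acta2GFP for the first 3 and without PdgfrbGFP for the last 2. Leaving out 1 plate gave 0 to 0% for Acta2GFP and 0 to 0.0280% for PdgfraGFP (the latter without 1 of its own plates).

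Log2 fold changes of uncalled members reversed between classes to -0.38 for *Tcf7l1* and -2.17 for *Axin2* (plates), -0.13 for *Tcf7l2* (without Acta2GFP, up to 0.37 without another strain), -0.24 for *Znrf3* (without Cspg4dsRED, up to 1.502) and -0.14 for *Tcf7* (without cluster 2). *Znrf3* in the apex turned to -0.11 (block), -0.31 (at least 3 cells), -0.34 (plates), -0.44 (limma), -1.46 (without PdgfraGFP, up to 0.65 without another strain) and -0.07 (without Cspg4dsRED). Of 310 values of 29 fold changes, 87.4% kept direction and call, 21 passed the threshold newly, 7 lost it and 11 reversed. The cause was not tested. Levels from pooled counts or with at least 3 cells moved by over 1 SD, or by any amount in cluster 8, in 27 of 160. Cluster 8 has 1 strain and so no SD. Thinning moved 53 of 80 shares outside their intervals. At these depths no difference in *Rnf43* or *Notum* was detectable.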
